A study of Arabidopsis thaliana with 6 samples.

Results

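*psbA* and *rbcL* are the 2 chloroplast genes described here, out of 77 gene entries in the deposited table, and they were taken by name. Copies of *ndhB*, *rps7*, *ycf2* and *rpl2* in the inverted repeat were merged, so that 73 RNAs were compared in all, and 71 of them serve as the comparison for *psbA* and *rbcL*. *psbA* encodes D1, the reaction centre protein of photosystem II that is damaged by light and replaced by continuous new synthesis. *rbcL* encodes the large subunit of Rubisco, the enzyme that fixes carbon dioxide in the Calvin cycle, whose small subunit is encoded in the nucleus. Both are among the most strongly expressed genes of leaf chloroplasts, and their mRNAs are long-lived and highly translated. Their messages are stabilized or activated by dedicated nuclear-encoded proteins in *Arabidopsis*, such as HCF173 for *psbA* and MRL1 for *rbcL*. CP31A is a chloroplast ribonucleoprotein with a pair of RNA recognition motifs that binds many plastid mRNAs.

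The comparison asked how the 2 mRNAs distribute between RNA precipitated with CP31A and the RNA from which it was precipitated. There were 3 CP31A pellet libraries (anti-CP31A antibody) and 3 input libraries (no antibody selection), paired by replicate numbers 1 to 3. All came from whole wild-type Columbia-0 seedlings, 14 days old, grown at 21 °C with 16 h of light and 8 h of darkness. In both groups the extract was cross-linked with formaldehyde and trimmed with RNase I, and the input was taken from the mix of extract and antibody-coated beads before washing. The paper calls the replicates biological. Libraries made with non-specific immunoglobulins were not analysed here, so that RNA retained by the beads alone cannot be told apart from RNA held by CP31A. The table holds chloroplast genes only, and nuclear tissue markers were not used here. Values are TPM, reads divided by the length of a counting window and scaled to a common total. A higher share for one RNA therefore means a lower share for the rest. The reads come from RNase-trimmed fragments that the authors also selected by size. Level and abundance here therefore mean such fragments per length of window, which need not equal the amount of intact mRNA. Reads recovered from TPM and window length numbered 251570 to 392286 in the pellets and 24224 to 73526 in the inputs.

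In the chloroplast sequence of the TAIR10.1 assembly (RefSeq), *psbA* occupies positions 383 to 1444 of the minus strand and *rbcL* positions 54958 to 56397 of the plus strand. Each is a protein-coding gene without introns. The first and last 30 bases of each coding sequence are shown because they anchor the windows in which reads were counted, which run from 100 nt before the start codon to 100 nt after the stop codon. Capitals mark the start and stop codons, and each sequence is the coding strand from 5′ to 3′.
*psbA* start (1415 to 1444): ATGactgcaattttagagagacgcgaaagc
*psbA* end (383 to 412): gctgttgaggctccatctacaaatggaTAA
*rbcL* start (54958 to 54987): ATGtcaccacaaacagagactaaagcaagt
*rbcL* end (56368 to 56397): accatcgataaattagatggccaagagTAG
The windows were 1262 nt for *psbA* and 1640 nt for *rbcL*. Neither overlapped the window of another protein-coding gene on the same strand, whereas the windows of 39 of the 73 RNAs did, so that reads of these 2 mRNAs were not shared with a neighbour. The nearest gene upstream of *psbA* is *trnK*, 272 nt away on the same strand, with *matK* inside it. *rbcL* lies between *atpB*, 801 nt away on the opposite strand, and *accD*, 677 nt away on the same strand.

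*psbA* was the most abundant RNA and *rbcL* the next in each of the 6 libraries. The TPM of *psbA* was 376180, 352476 and 325371 in pellets 1, 2 and 3, against 393180, 551105 and 484760 in inputs 1, 2 and 3. Every pellet lay below every input, and pellet 1 and input 1 were the closest. The TPM of *rbcL* was 80781, 74119 and 77159 in pellets 1, 2 and 3, against 121619, 86469 and 107222 in inputs 1, 2 and 3. Its groups did not overlap either, and here input 2 was nearest to the pellets. In all, 3 of the 73 RNAs (4.11%) had every pellet below every input on this scale, and they were *psbA*, *rbcL* and *psaA*, while 46 (63.0%) had every pellet above every input. The TPM of *rbcL* exceeded that of the next RNA by 1.90 to 2.09 times in the pellets and by 2.36 to 3.05 times in the inputs. That next RNA was *psbJ*, *psbJ* and *psbB* in pellets 1, 2 and 3, and *psbD*, *psbC* and *psbC* in inputs 1, 2 and 3. Against the median RNA of its library, *psbA* stood 72.6 to 91.2 times higher in the pellets and 172 to 212 times higher in the inputs, and *rbcL* 16.3 to 19.6 times higher in the pellets and 33.3 to 53.1 times higher in the inputs.

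**Figure D1:**
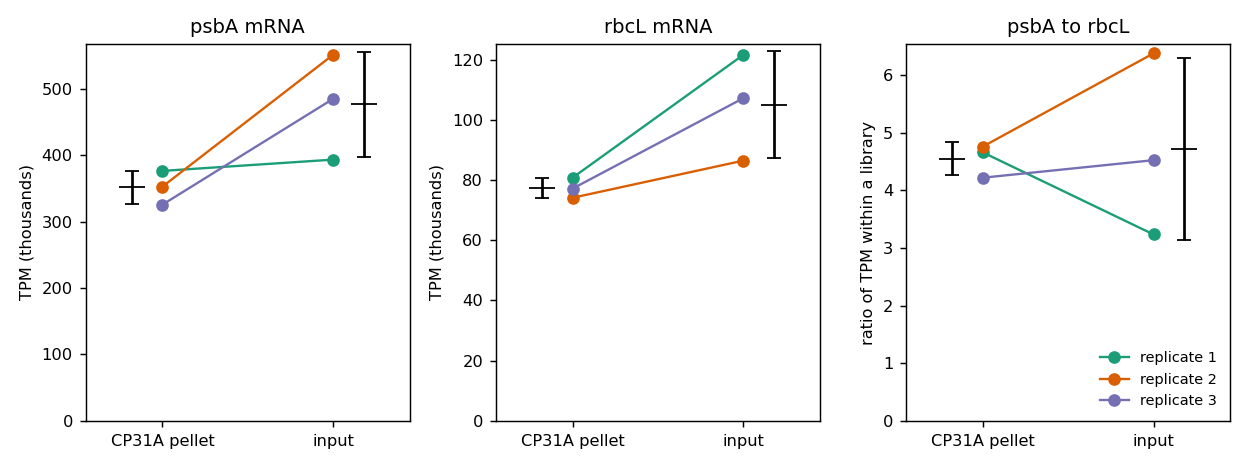
TPM of *psbA* and *rbcL* (axis in units of 1000), and the ratio of their TPM within each library, in CP31A pellets (left) and inputs (right). Points are libraries, lines join the pellet and input of a replicate, and black marks give mean and SD (n = 3); both mRNAs were lower in the pellet in 3 of 3 pairs, while the ratio spread from 3.23 to 6.37 in the inputs and from 4.22 to 4.76 in the pellets.

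On average *psbA* had 351343 ± 25424 TPM in the pellets and 476348 ± 79298 TPM in the inputs (SD, n = 3). The log2 ratio of pellet over input was -0.06, -0.64 and -0.58 in the pairs of replicates 1, 2 and 3, with a mean of -0.43 ± 0.32 (SD, n = 3 pairs), which is 0.74-fold. Replicates 2 and 3 showed a loss of about the same size, and replicate 1 showed almost none. Fitted with limma over all 73 RNAs with the replicate as a block, the change had a standard error of 0.23 and a 95% interval from -0.96 to 0.11, and it did not pass (adjusted p = 0.156). *rbcL* had 77353 ± 3335 TPM in the pellets and 105103 ± 17670 TPM in the inputs (SD, n = 3). Its log2 ratios were -0.59, -0.22 and -0.47 in the 3 pairs, with a mean of -0.43 ± 0.19 (SD, n = 3 pairs), also 0.74-fold. All 3 pairs pointed down, and here replicate 2 had the smallest change. The 95% interval from limma ran from -0.94 to 0.08, and this change did not pass either (adjusted p = 0.139). On this scale 1 of 73 RNAs (1.37%) passed as lower in the pellet, the low-abundance *ycf1.1*, and 36 (49.3%) passed as higher.

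The 2 means stood at ranks 3 (*psbA*) and 2 (*rbcL*) from the lowest of 73, next to *psaA* at -0.43 ± 0.26 (SD, n = 3 pairs), which encodes a reaction centre protein of photosystem I. Within single pairs, *psbA* ranked 23, 2 and 2 from the lowest in replicates 1, 2 and 3, and *rbcL* ranked 13, 3 and 3. Replicate 1 thus placed both mRNAs among many others, and replicates 2 and 3 placed them near the bottom. In replicate 1, 49 of 73 RNAs had a log2 ratio above 0, against 69 in replicate 2 and 65 in replicate 3. Input 1 was the shallowest library, with a median of 39 reads per RNA against 131 and 146 in inputs 2 and 3. The part of depth in these ranks and counts was not tested. Without replicate 1 both passed as lower by limma, *psbA* at -0.61 (adjusted p = 4.72e-05) and *rbcL* at -0.35 (adjusted p = 0.0163), among 4 RNAs (5.48%) that passed as lower, while 58 (79.5%) passed as higher. With 2 pairs left, all RNAs had the same standard error (0.14), so these values do not measure the spread of either mRNA. Without replicate 2 the values were -0.32 for *psbA* and -0.53 for *rbcL*, without replicate 3 they were -0.35 and -0.41, and none of these passed. Those fits called 26 RNAs (35.6%) and 21 RNAs (28.8%) higher, and 1 (1.37%) and 0 lower (1 at an unadjusted p under 0.05 in the last case).

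Counting error was far smaller than the spread between pairs. *psbA* had 106931, 136149 and 146973 reads in pellets 1, 2 and 3, against 10354, 39932 and 37977 in inputs 1, 2 and 3. *rbcL* had 29840, 37205 and 45293 reads in pellets 1, 2 and 3, against 4162, 8142 and 10916 in inputs 1, 2 and 3. The standard error that counting gives to the log2 ratio of a single pair was at most 0.015 for *psbA* and at most 0.024 for *rbcL*, against SDs of 0.32 and 0.19 over the pairs. As a share of reads rather than of TPM, *psbA* held 42.5% of pellet 1 (exact 95% binomial interval 42.3% to 42.7%) and 42.7% of input 1 (42.1% to 43.4%), intervals that overlap. In replicate 2 it held 40.5% of the pellet (40.3% to 40.6%) and 58.9% of the input (58.5% to 59.2%), and in replicate 3 it held 37.5% of the pellet (37.3% to 37.6%) and 51.7% of the input (51.3% to 52.0%), far apart in both. *rbcL* held 11.1% to 11.9% of the reads of the pellets and 12.0% to 17.2% of the reads of the inputs. These intervals cover counting error only.

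Together the 2 mRNAs held 45.8%, 42.8% and 40.4% of the summed TPM in pellets 1, 2 and 3, against 51.6%, 63.9% and 59.3% in inputs 1, 2 and 3. Each pellet lay below each input. *psbA* alone accounted for 35.3% ± 2.53 of the pellets and 47.7% ± 7.97 of the inputs (SD, n = 3), and *rbcL* for 7.76% ± 0.332 of the pellets and 10.5% ± 1.77 of the inputs (SD, n = 3). The joint share differed by -5.72, -21.1 and -18.9 percentage points (pellet minus input) in the pairs of replicates 1, 2 and 3, with a mean of -15.3 ± 8.32 points (SD, n = 3 pairs). The exact two-sided sign-flip permutation test gave p = 0.25, below which 3 pairs cannot go. Of this mean, *psbA* made up -12.5 ± 9.59 points and *rbcL* -2.77 ± 1.44 points (SD, n = 3 pairs). The summed TPM of all other entries was correspondingly 1.12, 1.58 and 1.46 times as high in the pellet as in the input of replicates 1, 2 and 3. On the log2 scale the change of this sum averaged 0.46 ± 0.26 (SD, n = 3 pairs). The median log2 enrichment of all 73 RNAs in the fit was 0.71.

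**Figure D2:**
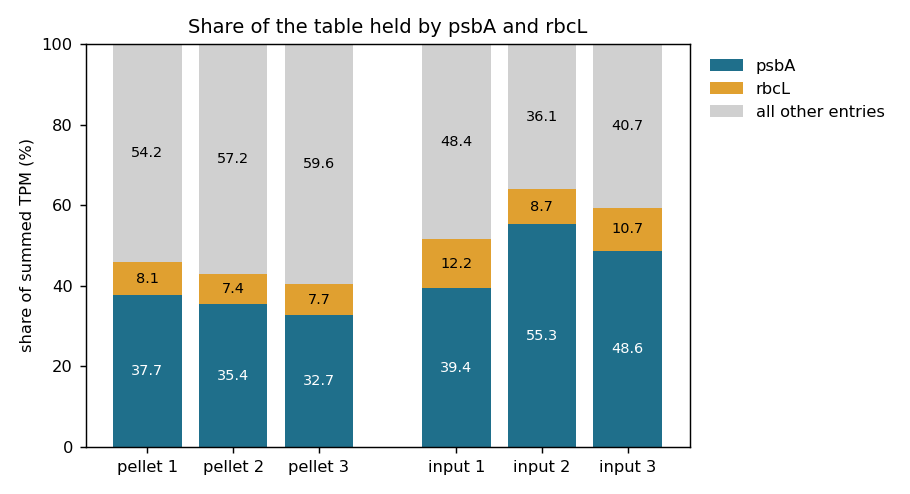
Share of the summed TPM, in percent, held by *psbA*, *rbcL* and all other deposited entries in each CP31A pellet (left) and input (right). The joint share of the 2 mRNAs ran from 40.4% to 45.8% in the pellets and from 51.6% to 63.9% in the inputs.

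Since the 2 mRNAs make up so much of the total, their own change depends on what it is measured against. Scaled to the sum of the 71 other RNAs, *psbA* had a log2 ratio of -0.87 (95% interval -1.58 to -0.16) that did not pass (adjusted p = 0.106 from limma), and *rbcL* had -0.87 (95% interval -1.33 to -0.41) and passed as lower (adjusted p = 0.0438 from limma). On that scale 3 of 73 RNAs (4.11%) passed as lower, *rbcL*, *psaA* and *ycf1.1*, and 5 (6.85%) as higher. With library medians brought to 0, both were -1.26 and both passed as lower (adjusted p = 0.00725 each from limma), among 9 RNAs (12.3%) that did so, against 4 (5.48%) that passed as higher. The other 7 were *psaA*, *psbC*, *psbD*, *atpH*, *rps16*, *rps18* and *ycf1.1*. The sum of the other RNAs and the library median rose in each pair, so these 2 scalings could only lower the 2 mRNAs further. The direction was the same on all 3 scales, and on each of them every pellet lay below every input for both mRNAs. That arrangement was more common there, being met by 18 RNAs (24.7%) when scaled to the others and by 25 (34.2%) with medians at 0, and the reverse was met by 26 (35.6%) and 14 (19.2%). Both scalings still depended on the replicates. Without replicate 3 neither mRNA passed on either scale (*psbA* at -1.18 and *rbcL* at -1.24 with medians at 0), and without replicate 2 both passed with medians at 0 only. Without replicate 1 both passed on both scales, and scaled to the other RNAs *psbA* was at -1.20 and *rbcL* at -0.94 (adjusted p = 0.0156 each from limma). The fits with medians at 0 called 27 (37.0%), 11 (15.1%) and 3 (4.11%) RNAs lower without replicates 1, 2 and 3, and 14 (19.2%), 4 (5.48%) and 2 (2.74%) higher. The fits scaled to the other RNAs called 15 (20.5%), 1 (1.37%) and 0 lower in the same order, and 24 (32.9%), 6 (8.22%) and 0 higher.

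**Figure D3:**
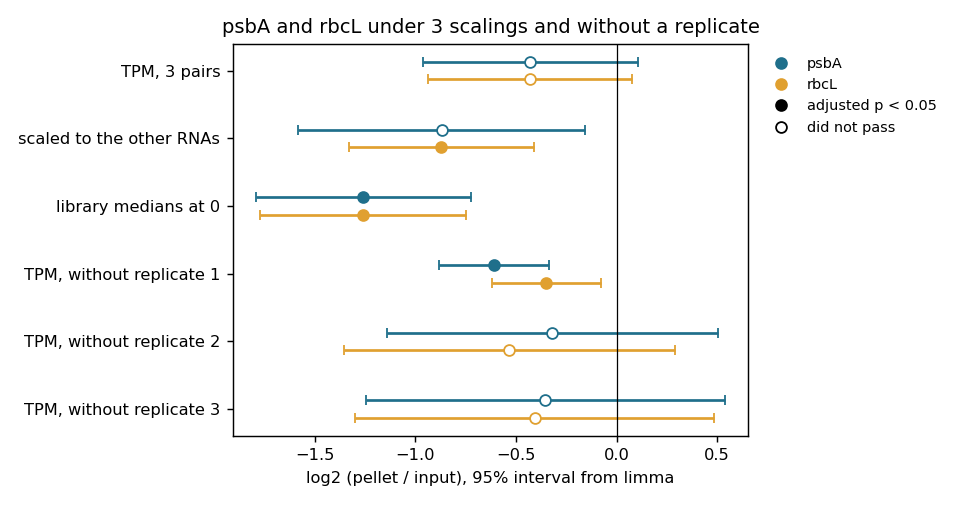
Log2 ratio of pellet over input for *psbA* and *rbcL* with 95% intervals from limma, on the TPM scale, scaled to the other RNAs, with library medians at 0, and on the TPM scale without each replicate. Filled points passed at an adjusted p under 0.05; all values lie below 0, from -1.26 with medians at 0 to -0.32 for *psbA* without replicate 2.

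The ratio of the 2 mRNAs to each other does not depend on the scaling of a library. *psbA* exceeded *rbcL* by 4.66, 4.76 and 4.22 times in pellets 1, 2 and 3, against 3.23, 6.37 and 4.52 times in inputs 1, 2 and 3. The pellets stood close together and inside the range of the inputs. The mean was 4.54 ± 0.287 in the pellets and 4.71 ± 1.58 in the inputs (SD, n = 3). On the log2 scale the ratio changed by 0.53, -0.42 and -0.10 in the 3 pairs, with a mean of 0.0012 ± 0.48 (SD, n = 3 pairs). Fitted with limma over the 72 RNAs set against *rbcL*, this mean had an adjusted p = 0.996 and a 95% interval from -0.65 to 0.65. A shift of the ratio of up to 1.57-fold in either direction therefore lies within the error, and the equal mean changes of the 2 mRNAs do not show that they were recovered alike. The exact sign-flip test over 3 pairs gave p = 1. Without replicate 1 the mean was -0.26 (adjusted p = 0.0906 from limma), and without replicate 2 it was 0.21.

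The spread of that ratio lay in the inputs. The SD of the log2 ratio of *psbA* to *rbcL* was 0.49 over the inputs and 0.093 over the pellets, while counting gave it a standard error of at most 0.026 in any library. In the inputs *psbA* was lowest in replicate 1 and highest in replicate 2, and *rbcL* was highest in replicate 1 and lowest in replicate 2. In the pellets no such opposition was seen: replicate 1 was highest for both. The SD of log2 TPM was 0.10 over the pellets and 0.25 over the inputs for *psbA*, and 0.062 over the pellets and 0.25 over the inputs for *rbcL*. The median RNA had 0.095 over the pellets and 0.41 over the inputs, so that the 2 mRNAs were less variable than the median RNA in the inputs. The input libraries had fewer reads than the pellets, and the part of depth in these spreads was not tested for the other RNAs.

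Set against *rbcL* in the same library, 70 of the 71 other RNAs were higher in the pellet, with a median log2 difference of 1.20. That count restates the rank of the *rbcL* mean, since of these RNAs only *ycf1.1* had a lower one. By limma 56 of 72 (77.8%) passed as higher, and 1 (1.39%) passed as lower (*ycf1.1*, at -0.56, adjusted p = 0.0256). Set against *psbA*, 70 of 71 were higher for the same reason, with a median of 1.20, and 48 of 72 (66.7%) passed as higher. The choice of *psbA* for this was made after the values were seen, and all differences of a set share the error of the mRNA they are set against. The median differences without replicates 1, 2 and 3 were 1.09, 1.25 and 1.16 against *rbcL*, and 1.35, 1.03 and 1.11 against *psbA*. The counts that passed as higher moved with the replicates. Against *rbcL* they were 68 (94.4%), 35 (48.6%) and 0 without replicates 1, 2 and 3 (39 at an unadjusted p under 0.05 in the last case), and against *psbA* they were 69 (95.8%), 32 (44.4%) and 24 (33.3%).

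The mRNAs nearest in abundance were *psbC*, *psbJ*, *psbD* and *psbI*, all for photosystem II, with 35760 (*psbC*) to 24358 (*psbI*) TPM in the mean input. *psbC*, which encodes the core antenna protein CP43, had 33576 ± 804 TPM in the pellets and 35760 ± 5931 TPM in the inputs, and a log2 enrichment of -0.08 ± 0.20 (SD, n = 3 pairs). *psbD*, which encodes D2, the partner of D1 in the reaction centre, had -0.40 ± 0.64 (SD, n = 3 pairs) with values of -1.12, 0.13 and -0.22 in the 3 pairs. Its mean was near that of *psbA*, but the pairs did not point the same way. *psbJ* and *psbI*, for small subunits, had 0.18 ± 0.45 and 0.02 ± 0.70 (SD, n = 3 pairs). None of these 4 passed on the TPM scale. Relative to *rbcL*, *psbJ* passed as higher at 0.61 (adjusted p = 0.0406 from limma) and *psbC* did not at 0.35 (adjusted p = 0.0851 from limma). Relative to *psbA*, none of the 4 passed. Among the 10 most abundant RNAs of the input 6 had a mean below 0 on the TPM scale, with a median of -0.20, against 7 of the 63 others, with a median of 0.81. The input enters both the abundance and the ratio here, so that this is a description without a test.

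**Figure D4:**
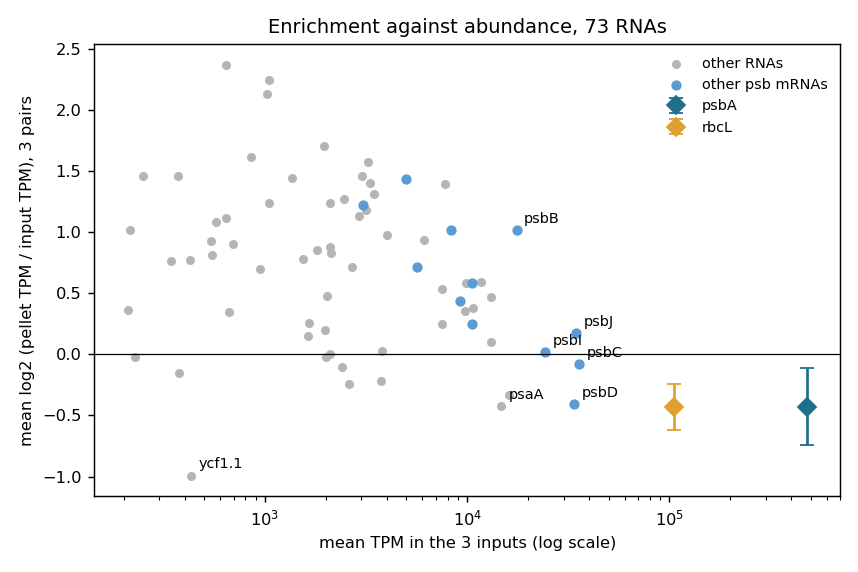
Mean log2 ratio of pellet over input (3 pairs) against mean input TPM on a log axis for 73 RNAs, with *psbA* and *rbcL* as diamonds with SD over the pairs, other *psb* mRNAs in blue and all other RNAs in grey. *psbA* and *rbcL* lie at the right, both at -0.43, and *psaA* and *psbD* lie at about the same height.

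Of 13 mRNAs whose names begin with *psb*, 5 passed as higher in the pellet (*psbB*, *psbK*, *psbM*, *psbN* and *psbT*), a share of 38.5% against 49.3% of all RNAs, none passed as lower by limma (0 also at an unadjusted p under 0.05) and 8 did not pass. The median log2 enrichment of the 13 was 0.43, against 0.71 over all RNAs. Values ran from that of *psbA*, the lowest, to 1.43 ± 0.35 (SD, n = 3 pairs) for *psbM*, for a small subunit. *psbB*, which encodes the core antenna protein CP47, had 1.02 ± 0.33 (SD over 3 pairs, limma adjusted p = 0.00726), with 35597 ± 4846 TPM in the pellets and 17583 ± 2456 TPM in the inputs. *psbB* thus rose about as far as *psbK* (1.02), although it was 7th in abundance in the inputs. *psbN* encodes an assembly factor rather than a subunit. With a replicate left out, 9, 3 and 2 of the 13 passed without replicates 1, 2 and 3, and *psbA* was the lower one of the 9. Over all 73 RNAs the same fits called 58 higher and 4 lower, 26 higher and 1 lower, and 21 higher and 0 lower, so that the count of the 13 moved with that of the whole set. With library medians at 0, none passed as higher (1 at an unadjusted p under 0.05) and *psbA*, *psbC* and *psbD* passed as lower, and scaled to the other RNAs none of the 13 passed by limma, with 3 higher and 3 lower at an unadjusted p under 0.05. Among 6 mRNAs for reaction centre and core antenna proteins (*psbA*, *psbB*, *psbC*, *psbD*, *psaA* and *psaB*), *psbB* passed as higher and 5 did not pass, with a median of -0.24. *psaB*, whose protein pairs with that of *psaA* in photosystem I, had 0.38 ± 0.19 (SD over 3 pairs, limma adjusted p = 0.182). With medians at 0, 4 of the 6 passed as lower, and *psbB* and *psaB* did not pass.

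**Figure D5:**
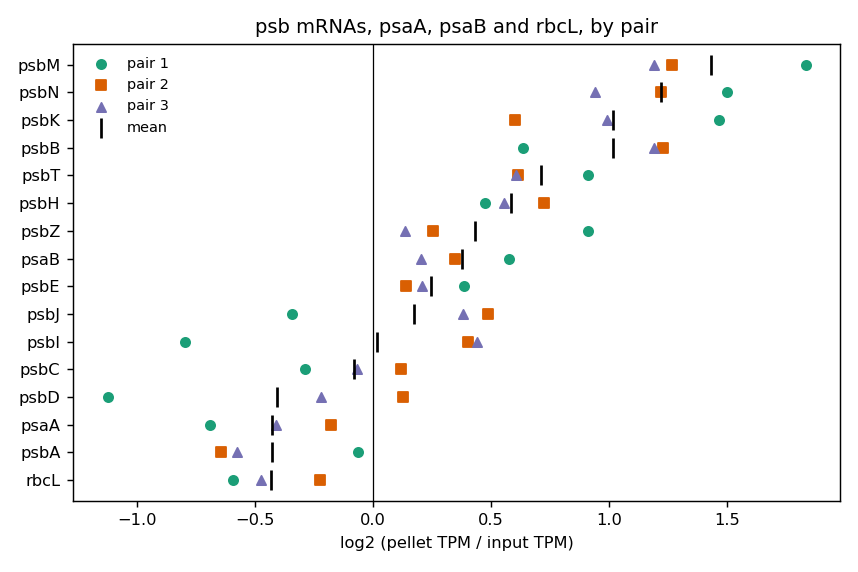
Log2 ratio of pellet over input in each of the 3 pairs (points) and their mean (bar) for the 13 *psb* mRNAs, *psaA*, *psaB* and *rbcL*. *psbA*, *rbcL* and *psaA* lie below 0 in 3 of 3 pairs, from -0.06 (*psbA*, replicate 1) to -0.69 (*psaA*, replicate 1).

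The protein-coding neighbours on the same strand took higher values on the TPM scale, while *atpB* was not told apart from *rbcL*. *matK*, upstream of *psbA* on the same strand, encodes a maturase for group II introns and was at a log2 ratio of 1.14 ± 0.28 (SD over 3 pairs, limma adjusted p = 0.00428). Its TPM was 6335 ± 200.2 in the pellets and 2924 ± 600.0 in the inputs (SD, n = 3). *accD*, downstream of *rbcL* on the same strand, encodes a subunit of acetyl-CoA carboxylase and had 0.70 ± 0.25 (SD over 3 pairs, limma adjusted p = 0.0292). *atpB*, on the strand opposite to *rbcL*, encodes the beta subunit of the ATP synthase and had -0.22 ± 1.02 (SD, n = 3 pairs), with -1.37, 0.57 and 0.13 in the 3 pairs. Relative to the median of each library, *matK* did not pass (0.31), *accD* was at -0.13 and *atpB* was at -1.05.

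Across the 6 libraries, the log2 TPM of *rbcL* was most like that of *psaA* (Pearson's r = 0.96), *ycf1.1* (0.96) and *psbD* (0.84). The likeness to *ycf1.1* rests on few reads, 17 in its shallowest library, against 855 for *psaA*. No RNA followed *psbA* as closely, the nearest being *rbcL* (0.40), *psaA* (0.39) and *ycf1.1* (0.35). Opposite orders were as close or closer for both, with r = -0.995 between *psbA* and *petB*, which encodes cytochrome *b*6, and r = -0.97 between *rbcL* and *psbK*. These values cover both groups of libraries, share the scaling to a common total, of which *psbA* is the largest part, and are given without a test. The windows of the 2 mRNAs were rich in G and C, with 39.6% for *psbA* and 42.2% for *rbcL* (ranks 11 and 2 of 73, median 33.9%). Of the 11 RNAs with the highest GC, down to *psbA* and with *rbcL* included, 7 had a mean log2 ratio below 0, against 13 of all 73. Without *psbA* and *rbcL* it was 5 of 9. Across genes, GC and the log2 ratio had a Pearson's r of -0.34 over 73 RNAs and of -0.29 over the 71 others, given without a test since genes are not independent replicates. The part of base composition in the ratios of *psbA* and *rbcL* was not tested. In U content they differed, with 35.6% for *psbA* and 29.7% for *rbcL* around a median of 32.9%.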

How the data were processed

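The authors' steps are taken from their methods and the processing notes of the submitters. Reads were trimmed (Trim Galore 0.6.4), aligned to TAIR10 (STAR 2.5.3) and then collapsed by molecular identifier (UMI-tools 0.5.4). Coding-strand reads were counted per chloroplast gene with introns and 100 nt on each side (featureCounts). Genes with under 5 reads in any library were left out. The authors deposited TPM for 77 entries, with log2 TPM per library. The deposited log2 ratios and p-values of the authors' own comparison were not used. Recomputed log2 TPM differed from the deposited values by at most 3.55e-15. Copies were averaged to 73 RNAs.

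TPM times window length and a factor per library (the smallest giving whole numbers) gave whole reads for 450 of 462 values, within 0.0001 reads, including all 12 of *psbA* and *rbcL*. For *psbC* and *rps12*, fitted windows (1586 and 995 nt) were used. These depths give counting errors only.

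log2 TPM without a pseudocount was fitted with limma 3.58.1 in R 4.3.3 (lmFit, eBayes), two-sided, with the replicate as a block and Benjamini-Hochberg adjustment over all RNAs and a threshold of 0.05. The block follows the methods and the shared mix of each pair. Deviations from group means correlated at 0.17, 0.30 and -0.03 within replicates 1, 2 and 3. The fit was tested on simulated data with independent noise. The simulation had no replicate effect and no common total, so that it does not cover these features of the data. Python 3.11.15 with scipy 1.17.1 gave exact permutation tests and binomial intervals.

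Genes named are *psbA*, *rbcL*, the 4 RNAs next in input TPM, the 3 most like each across libraries, all *psb* RNAs that passed with *psbB*, *psbC* and *psbD*, and the genomic neighbours. *psaB* is named as a member of the list of reaction centre and core antenna mRNAs. *atpH*, *rps16*, *rps18* and *petB* fall outside this rule and were named after their values were seen. The members and lists were chosen with earlier results of these data known. Alternatives covered pairing, scaling, pseudocount, a filter, the variance model and each replicate.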

Additional observations from a re-analysis of the deposited data

How the results depend on the processing

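Each log2 ratio of *psbA* and *rbcL* kept its direction under every alternative run, but these runs could hardly have reversed it. On TPM both mRNAs were lower in all 3 pairs, so that leaving out a pair could not change the sign. The block, the filter and the variance model leave the mean ratio as it is, and the 2 rescalings could only lower it. Without the replicate block the values were -0.43 for both and did not pass (adjusted p = 0.0946 for *psbA* and 0.0918 for *rbcL* from limma), the ratio of *psbA* to *rbcL* stayed at 0.0012, the joint share at -15.3 points (exact permutation test of 3 against 3, p = 0.1, the smallest it allows) and 6 *psb* mRNAs passed, so that the pairing changed no call of the 2 mRNAs. Pseudocounts of 1 and 100 TPM, a mean TPM of at least 1000, and an intensity trend left both not passing. The methods' test is one-sided for a higher pellet, so that it could not call a lower value and bears only on the *psb* count. Here it was run with Benjamini-Hochberg adjustment and without the methods' fold cutoff, so that its 4 *psb* calls are not the authors' targets. With library medians at 0, *psbA* was at -1.26 and *rbcL* at -1.26 and both passed, and scaled to the other RNAs *rbcL* passed at -0.87. With a replicate left out, *psbA* ran from -0.61 to -0.32 and *rbcL* from -0.53 to -0.35 on TPM, and on the other scalings, added after the values were seen, *psbA* ran from -1.43 to -1.16 with medians at 0 and from -1.20 to -0.66 scaled to the other RNAs, and *rbcL* from -1.37 to -1.17 and from -0.94 to -0.80. The ratio ran from -0.26 to 0.21, changing sign without replicate 1, and the joint share from -20.0 to -12.3 points. The share was -14.1 points by reads and -15.9 points without *psbC* in the total. Of the 13 *psb* mRNAs, 3 passed with medians at 0, 0 scaled to the other RNAs, and 2 to 9 with a replicate left out. Without replicates 1, 2 and 3 the median log2 ratio of the 13 on TPM was 0.44, 0.52 and 0.58. The limma standard error of *psbA* and of *rbcL* in the same fits was 0.14, 0.41 and 0.45. The cause of these changes in values and counts was not tested. With 3 pairs an exact test cannot go below p = 0.25.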
